A study of Mus musculus with 21 samples.

Results

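The semaphorin, plexin, neuropilin, ephrin, Eph, Slit, Robo, netrin and Unc5 genes of the mouse were followed across 21 RNA-seq libraries of cultured mammary fibroblasts. Members were defined by patterns of gene names, which were chosen with earlier results of these data known. Of the 45706 genes in the count table, 70 matched. They comprise 20 semaphorins (Sema3 to Sema7), 9 plexins, the 2 neuropilins, 5 ephrin-A and 3 ephrin-B genes, 9 EphA and 5 EphB receptors, 3 Slits, 4 Robos, 3 netrins, 4 Unc5 receptors and 3 antisense transcripts named after Plxna4. NF (line NF1) are normal fibroblasts of the FVB/n mammary gland. CAF (line CAF1) are cancer-associated fibroblasts of an MMTV-PyMT mammary carcinoma, in which the mouse mammary tumour virus promoter drives the polyoma middle T oncogene. Each cell type was 1 numbered line, so a difference between CAF and NF cannot be told apart from a difference between these lines. All cells received 100 nM siRNA for 48 h, either a control or a pool directed at Hsp90aa1 (the stress-inducible form of the cytosolic chaperone HSP90) or at Hsp90ab1 (its constitutive form). There were 7 groups of 3 libraries. NF received control siRNA with vehicle, or 5 ng/mL TGFb1 for 43 h with control, Hsp90aa1 or Hsp90ab1 siRNA. CAF received vehicle with control, Hsp90aa1 or Hsp90ab1 siRNA. The knockdowns were thus made under TGFb1 in NF and without it in CAF.

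Semaphorins are secreted, membrane-bound or lipid-anchored cues that signal through plexins, and most secreted class 3 semaphorins need a neuropilin as co-receptor. Ephrins and Eph receptor tyrosine kinases sit on facing cell membranes and signal in both directions, Slits are secreted ligands of Robo receptors, and netrins act through Dcc, neogenin (Neo1) and the Unc5 receptors. Many are best known from axon guidance, and members of these families also control cell adhesion and migration outside the nervous system, Slits and netrins in the mammary duct among them.

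Library totals ran from 35087162 to 70421549 counts. Values within a gene are given as normalised CPM (counts scaled to a common library size), and levels are compared between genes only as TPM, which also account for transcript length. Each fold change is a log2 fold change ± SE from edgeR's quasi-likelihood test, fitted on all 15230 genes that passed a filter on low counts. A gene passed where the Benjamini-Hochberg adjusted p was under 0.05. The labels do not say that libraries of a group came from separate cultures, so the p-values reflect only how much these libraries vary, which may be technical. In NF with TGFb1, Hsp90aa1 fell by 3.01 on the log2 scale with its own siRNA, from 671, 606 and 543 CPM to 40.2, 65.5 and 120.4, and Hsp90ab1 fell by 2.91 with its own. In CAF the 2 targets fell by 3.31 and 3.33. Under Hsp90ab1 siRNA, Hsp90aa1 also read lower, at a log2 fold change of -1.05 ± 0.30 in NF (adjusted p = 0.0722) and -1.07 ± 0.30 in CAF (adjusted p = 0.123), neither past the threshold. The 7 genes of a myofibroblast and TGFb1 response list all rose with TGFb1 in NF. Collagen, vimentin and Pdgfra transcripts were abundant in every group, but among the 10 fibroblast markers Thy1 read 0.326 TPM in NF against 222 TPM in CAF, and Lum and Fap stayed at or below 1.13 TPM in every group mean. Under control siRNA, Dcn read 401 TPM in untreated NF, 135 TPM in NF with TGFb1 and 17.8 TPM in CAF. Of the 10 markers, 8 were higher and 1 lower in CAF than in NF, and 3 rose and 3 fell with TGFb1.

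Of the 70 guidance genes, 47 reached a mean of 1 TPM in at least 1 group and 32 did so in all 7. The number at or above 1 TPM was 37 in untreated NF, 38 in each NF group with TGFb1, and 41, 40 and 43 in CAF with control, Hsp90aa1 and Hsp90ab1 siRNA. Epha5, Epha6, Plxna4os1, Plxna4os2 and Plxna4os3 had no count in any library. Another 10 genes had counts but too few to be tested: Sema5b, Plxnb3, Epha8, Epha10, Ephb1, Slit1, Robo3, Robo4, Ntn5 and Unc5a. A further 8 were tested but never reached a group mean of 1 TPM: Sema3g, Sema4d, Sema4f, Plxnc1, Epha3, Epha7, Robo1 and Unc5d. All 55 tested members passed the filter through counts in at least 1 group, so they are not a sample of all 70.

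Plxnb2, a receptor for class 4 semaphorins, had the highest mean of all receptors here in every group, at 148 ± 25.6 TPM (SD, n = 3) in untreated NF and 156 ± 1.25 TPM in CAF, and Plxna1, a receptor for several semaphorin classes, was at 93.1 ± 14.1 and 86.9 ± 6.11 TPM. Slit3 was the leading Slit, at 133 ± 40.6 TPM in NF and 145 ± 30.1 TPM in CAF, while the Robo receptors that were tested stayed low, Robo1 at most 0.674 TPM and Robo2 at most 1.83 TPM in any group mean. Of the other netrin receptors, Dcc was at 0 TPM in all 7 groups and Neo1 lay between 28.6 and 36.5 TPM in group means. Unc5b was the leading Unc5 receptor in each group, Ephb4 the leading EphB receptor, and Efnb2 the leading ephrin-B in all groups but NF with TGFb1 and control or Hsp90aa1 siRNA, where the mean of Efnb1 was 24.9 ± 3.56 and 16.9 ± 3.56 TPM against 21.9 ± 3.77 and 16.2 ± 0.72 TPM of Efnb2.

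**Figure D1:**
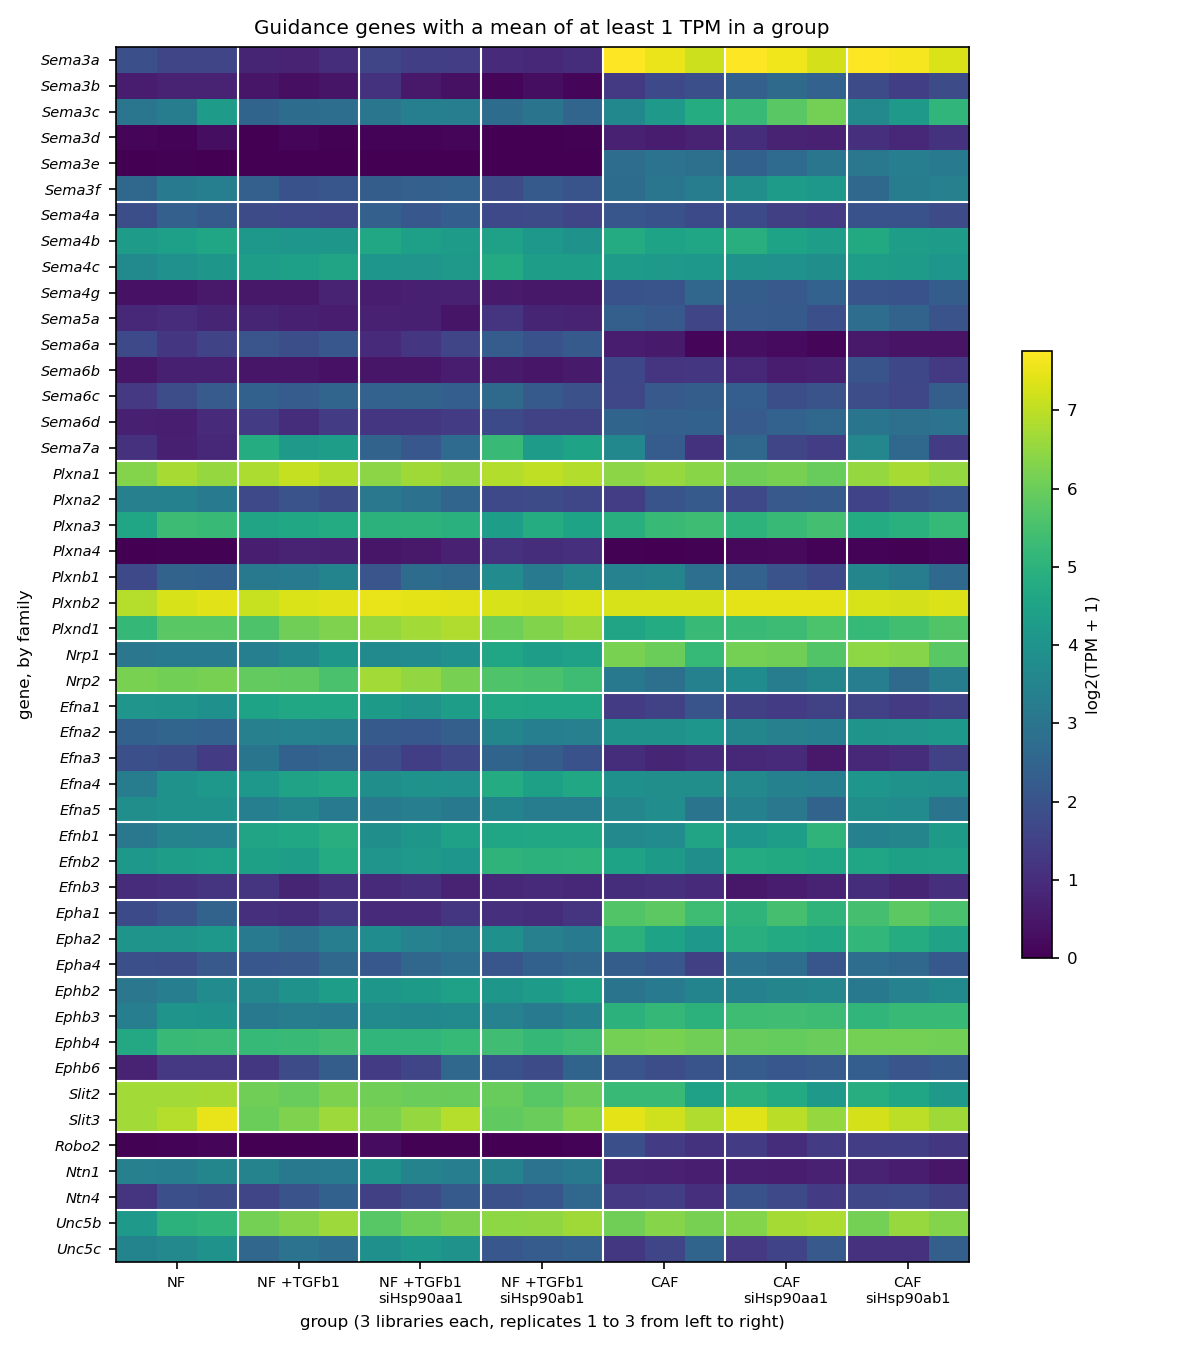
Level of the 47 guidance genes that reached a mean of 1 TPM in a group, as log2(TPM + 1) in each of the 21 libraries (columns, 3 per group) and by family (rows). Sema3a changes from dark to the brightest colour between NF and CAF, Nrp1 and Nrp2 exchange their levels, and Plxna1 and Plxnb2 are bright throughout.

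The first comparison asked how CAF differ from NF under control siRNA and vehicle. CAF had far more Sema3a, Sema3e, Epha1 and Nrp1, and far less Ntn1, Nrp2, Efna1 and Robo1, than NF. Of the 55 tested members, 24 were higher and 12 lower in CAF (65.5% passed), beside 61.6% of all genes tested (31.6% higher and 30% lower), so the share that passed was close to that of all genes tested. The median size of the log2 fold change was 1.37 over the members and 0.52 over all genes tested, and 31 of the 55 members both passed and differed by more than 1 on the log2 scale, beside 3896 of all 15230 genes. In 35 of the 36 members that passed, no NF library overlapped a CAF library. Overlap was not counted over all genes that passed, here or in later comparisons, so such counts describe only the members. With the replicate number as a blocking term, 40 passed (beside 66.3% of all genes in that fit), and the 4 gained were Sema3c, Sema3g and Epha3, higher in CAF, and Ephb2, lower (adjusted p = 0.0269, 0.0281, 0.035 and 0.0442).

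Secreted class 3 semaphorins were higher or did not pass: 4 of 7 were higher in CAF and none was lower. Of all genes tested, 31.6% were higher and 30% lower. Sema3a (chr5:13125414-13602565, plus strand), the classic collapsing cue for sensory growth cones, was at 7.45, 4.67 and 5.17 CPM in the 3 NF libraries and at 452, 376 and 304 CPM in CAF. Every CAF library exceeded every NF library, by 6.03 ± 0.22 (log2, adjusted p = 1.38e-13). At 181 ± 36.7 TPM it was the most abundant semaphorin in CAF, and at 2.29 ± 0.389 TPM a minor one in NF. Sema3e (chr5:14025276-14256689, plus strand), which signals through Plxnd1 without a neuropilin, was at 0, 0.0898 and 0.0191 CPM in NF and 18.7, 21.9 and 20.8 CPM in CAF (9.21 ± 0.41, adjusted p = 1.16e-11). The NF value rests on 5 counts in all. Its receptor Plxnd1 went the other way, from 147, 203 and 194 CPM in NF to 81.1, 95 and 136 CPM in CAF (-0.80 ± 0.19, adjusted p = 0.00138). Sema3d (2.56) and Sema3b (1.74) were higher in CAF at lower levels. Sema3c (adjusted p = 0.116), Sema3f (0.555) and Sema3g (0.15) did not pass.

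Among the 12 tested membrane-bound and lipid-anchored semaphorins (classes 4 to 7), 7 were higher in CAF and 1 was lower. The shares over all genes tested were 31.6% and 30%. Sema4g was at 0.811, 0.741 and 1.03 CPM in NF and 6.83, 7.06 and 11.5 CPM in CAF (3.29 ± 0.23, adjusted p = 7.28e-10). Sema6d, a transmembrane ligand of Plxna1, was at 2.22, 2.02 and 2.9 CPM in NF and 14.5, 12.7 and 13.6 CPM in CAF (2.51 ± 0.16, adjusted p = 2.44e-10). The groups were far apart for both genes. Sema5a, which carries thrombospondin repeats, was at 5.54, 5.86 and 4.39 CPM in NF and 24.2, 19.98 and 12.1 CPM in CAF (1.83 ± 0.30, adjusted p = 3.56e-05), again without overlap. Sema7a, the lipid-anchored semaphorin that binds plexin C1 and integrin beta 1, was at 2.28, 1.08 and 1.41 CPM in NF and 19.4, 6.37 and 2.04 CPM in CAF (2.54 ± 0.73, adjusted p = 0.00558). Here the CAF libraries differed by several fold among themselves and the lowest lay below an NF library. The call was lost without CAF control replicate 1 (adjusted p = 0.115). Sema6a, a transmembrane ligand of Plxna2 and Plxna4, was the one lower in CAF, at 6.6, 3.93 and 5.53 CPM in NF and 1.44, 1.24 and 0.382 CPM in CAF (-2.39 ± 0.40, adjusted p = 5.29e-05). Sema4f (2.09), Sema6b (1.53) and Sema4d (1.21) were higher at under 5 CPM in CAF, and Sema4a, Sema4b, Sema4c and Sema6c did not pass.

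The neuropilins exchanged places. Nrp1 (chr8:128358604-128503363, plus strand), which prefers Sema3a, was at 27, 26.4 and 25.8 CPM in NF and 230.4, 196 and 113 CPM in CAF (2.77 ± 0.24, adjusted p = 1.19e-08). Nrp2 (chr1:62703285-62818695, plus strand), which prefers Sema3f, was at 273, 237 and 239 CPM in NF and 26.7, 21.7 and 32.6 CPM in CAF (-3.21 ± 0.21, adjusted p = 4.2e-10). No library of one line overlapped the other for either gene. Per length, NF had 70.6 ± 2.38 TPM of Nrp2 and 7.99 ± 0.432 TPM of Nrp1, and CAF had 7.89 ± 1.63 TPM of Nrp2 and 57.5 ± 19.2 TPM of Nrp1. The sum over both neuropilins was 78.6 ± 2.11 TPM in NF and 65.4 ± 18.1 TPM in CAF. Plxna2 was at 61.5, 55.9 and 47.4 CPM in NF and 9.65, 17 and 20.7 CPM in CAF (-1.80 ± 0.25, adjusted p = 6.34e-06), while Plxna1, Plxna3, Plxna4 and Plxnb2 did not pass. Plxnb1, the Sema4d receptor, was higher in CAF (1.07 ± 0.24), and so was Plxnc1, the Sema7a receptor (5.11 ± 0.60), at a mean of only 0.311 TPM.

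Epha1 was far higher and its ligand Efna1 far lower in CAF. Of the 9 tested Eph receptors, 5 were higher in CAF (Epha1, Epha2, Ephb3, Ephb4, Ephb6) and 1 was lower (Epha7). Of the 5 ephrin-A genes, 3 were lower (Efna1, Efna3, Efna5) and 1 was higher (Efna2). Both counts stand beside 31.6% higher and 30% lower over all genes tested. Epha1 (chr6:42358487-42373268, minus strand), a receptor for ephrin-A1, was at 4.6, 5.23 and 7.59 CPM in NF and 83.3, 91 and 67.3 CPM in CAF (3.79 ± 0.20, adjusted p = 1.4e-11). Efna1 (chr3:89271733-89281142, minus strand), its ligand, was at 12.8, 11.1 and 9.8 CPM in NF and 1.12, 1.3 and 2.22 CPM in CAF (-2.86 ± 0.19, adjusted p = 3.41e-10). Both pairs of groups were separated, in opposite directions. Efna2 was at 5.3, 5.28 and 4.65 CPM in NF and 15.5, 15.5 and 17.1 CPM in CAF (1.66 ± 0.10, adjusted p = 1.81e-10), and the CAF libraries all lay above the NF libraries.

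Ephb4, the main partner of ephrin-B2, was at 64, 86.6 and 86.4 CPM in NF and 160.0, 161 and 151 CPM in CAF (adjusted p = 3.7e-08), and its ligand Efnb2 did not pass (-0.14 ± 0.13, adjusted p = 0.361). Ephb3 was at 21.5, 32.8 and 32 CPM in NF and 67.2, 72.8 and 67.1 CPM in CAF (adjusted p = 3.75e-08). Ephb6, an Eph receptor without kinase activity, was at 1.51, 2.2 and 2.84 CPM in NF and 6.23, 4.9 and 5.96 CPM in CAF (1.39 ± 0.37, adjusted p = 0.00344). In all these receptors the CAF libraries lay above the NF libraries. Epha2 and Efnb1 were higher by less than 1 and Efna5 lower by less than 1 on the log2 scale, Efna3 (-1.22) and Epha7 (-1.84) were lower at low levels, and Epha3, Epha4, Ephb2, Efna4 and Efnb3 did not pass. Efna4, the ephrin-A gene with the highest mean TPM over all libraries, was at 7.94, 12.1 and 12.8 CPM in NF and 10.8, 10.2 and 10.4 CPM in CAF, which overlapped. The calls of Epha2, Efnb1 and Efna5 were lost without 5, 2 and 3 single libraries of the 6, with adjusted p up to 0.381, 0.243 and 0.133.

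Netrin-1 was far lower in CAF. Ntn1 (chr11:68209364-68400823, minus strand), a laminin-related secreted cue, was at 31.3, 25.7 and 28.2 CPM in NF and 1.82, 1.59 and 1.64 CPM in CAF (-4.07 ± 0.23, adjusted p = 5.2e-11), and the 3 values within each line were close. Ntn4 did not pass (-0.48 ± 0.31, adjusted p = 0.181). The Unc5 receptors split: Unc5b was at 62.4, 98.7 and 101 CPM in NF and 207, 246 and 223 CPM in CAF (1.37 ± 0.17, adjusted p = 1.94e-06), and Unc5c at 44.5, 44.8 and 56.4 CPM in NF and 5.2, 8.04 and 18.1 CPM in CAF (-2.22 ± 0.43, adjusted p = 0.000214). Groups did not overlap for either, although the CAF values of Unc5c spanned several fold. Unc5d had 1 count over the 3 NF libraries and 180 over the 3 CAF libraries, a ratio of 183 after scaling to library size (95% interval 32.4 to 7254, counting error only).

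Slit2, at 395, 378 and 381 CPM in NF and 141, 136 and 76.6 CPM in CAF, was lower in CAF (-1.71 ± 0.22, adjusted p = 2.18e-06), whereas Slit3 did not pass (0.06 ± 0.24, adjusted p = 0.836). All 3 CAF libraries were below the NF libraries for Slit2. The Robo receptors differed in opposite directions at low levels. Robo1 had 360 counts over the NF libraries and 3 over the CAF libraries, 118-fold lower in CAF (95% interval 40.1 to 576, counting error only), and Robo2 was at 0.0827, 0.157 and 0.229 CPM in NF and 5.77, 4.38 and 3.29 CPM in CAF (4.84 ± 0.50, adjusted p = 1.5e-07). NF thus carried Robo1 and almost no Robo2, and CAF the reverse.

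Markers of several other cell types moved with the line. The summed TPM of 7 epithelial markers was 0.538 to 0.585 in NF and 7.26 to 34.7 in CAF, nearly all of it Krt19 (mean 20.5 TPM in CAF), while Epcam and Cdh1 stayed at or below 0.123 TPM in every library. The sum of 8 endothelial markers was 0.272 to 0.475 TPM in NF and 1.29 to 2.3 TPM in CAF, led by Kdr at 1.37 TPM, with Tie1 and Cldn5 at 0. The sum of 5 pericyte markers was 0.479 to 0.752 TPM in NF and 2.12 to 3.83 TPM in CAF, and that of 6 glial markers 0.478 to 0.972 and 0.819 to 2.12 TPM. The sum of 7 immune markers was 4.08 to 5.45 TPM in NF and 4.7 to 6.39 TPM in CAF, and neither of the 2 tested passed. Most of it was Cd68 (mean 3.05 TPM in NF and 4.24 TPM in CAF) and Csf1r (1.69 and 1.18 TPM), while Ptprc was at most 0.05 TPM in every library. Sox10 was at 0 in every library, and 6 neuronal markers summed to 1.05 to 1.86 TPM in NF and 0.292 to 0.52 TPM in CAF. The part of these RNAs in the differences was not tested, and in bulk RNA fewer cells of a type cannot be told apart from less RNA per cell.

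**Figure D2:**
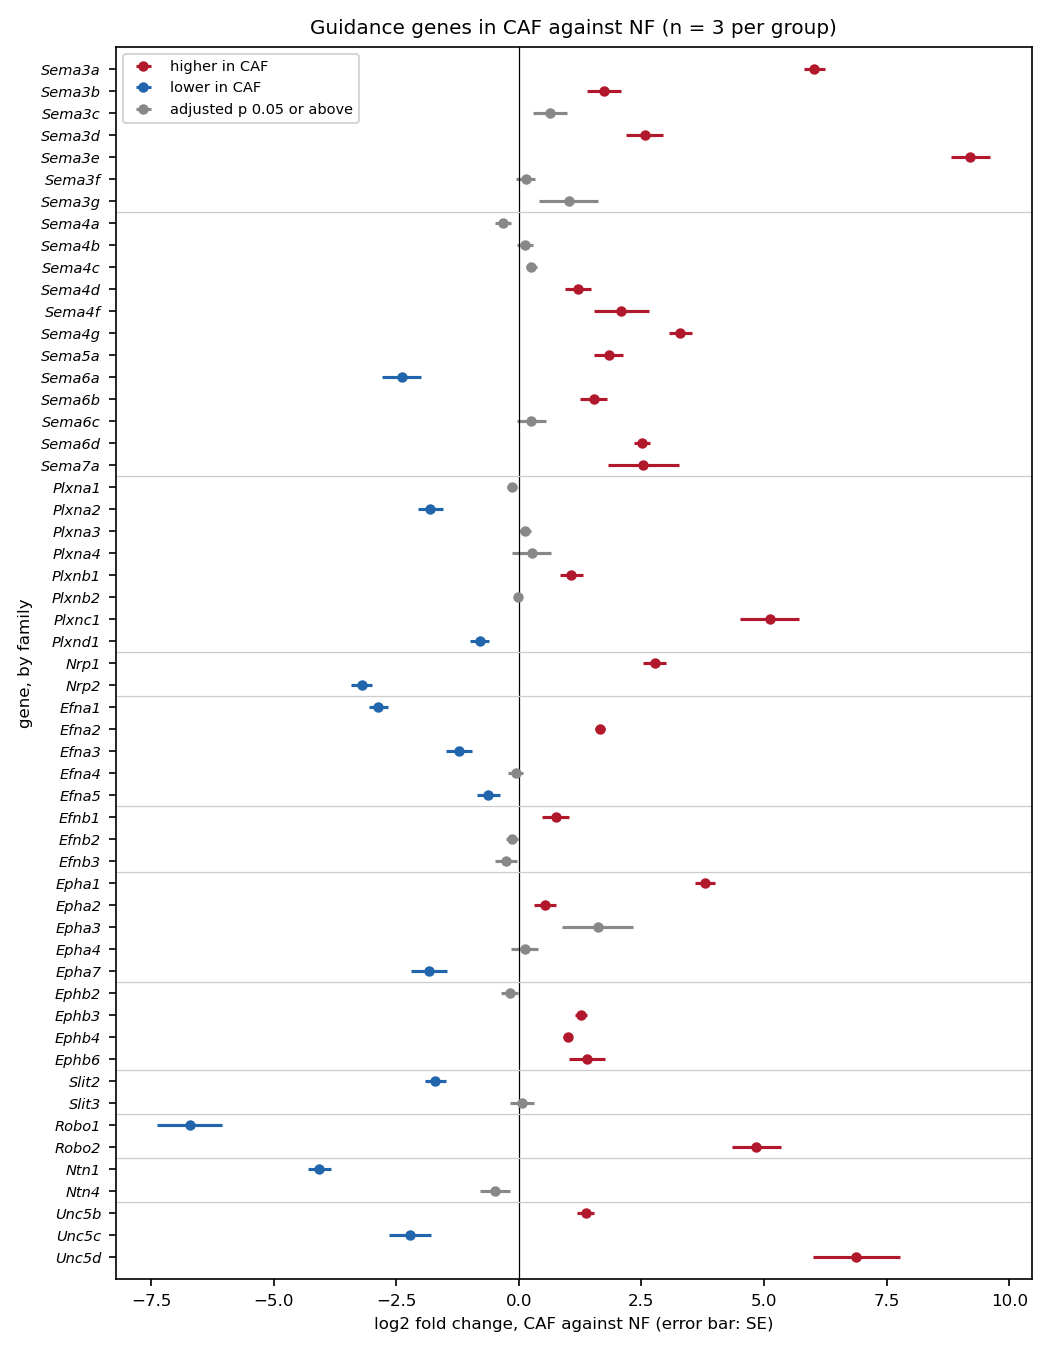
Log2 fold change (horizontal axis) of the 55 tested guidance genes in CAF against NF, both with control siRNA and vehicle, n = 3 libraries per group, error bars SE, in order of family. Red points (24) passed as higher and blue points (12) as lower in CAF, and the fitted values of Unc5d and Robo1 rest on 1 and 3 counts in the low group.

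Some members are neighbours in the genome (GRCm38, GENCODE vM21). Sema3a, Sema3c, Sema3d and Sema3e lie within chr5:12383385-17730268, and Sema3c of these did not pass in CAF against NF. Of the 7 other tested genes in that interval, 6 were higher in CAF and none lower, with a median log2 fold change of 1.05. Beside this, 31.6% of all genes tested were higher and 30% lower. With TGFb1 in NF, 1 of these 7 rose, 1 fell and 5 did not pass. Efna1, Efna3 and Efna4 lie within chr3:89271733-89338028, where both other tested genes were lower in CAF, with a median of -1.34. Efna4 itself did not pass, and with TGFb1 neither of the 2 other genes passed. Between Sema3b and Sema3f on chromosome 9, 1 of 2 other tested genes was higher, and Sema3f did not pass. The part of genome position in these differences was not tested. Robo1 and Robo2 adjoin on chromosome 16 with no other tested gene between them, and they differed in opposite directions.

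TGFb1 was compared with vehicle in NF under control siRNA. It lowered 5 class 3 semaphorins, Plxna2, Epha1, Slit2 and Slit3, and raised Sema7a, Unc5b, Efnb1, Plxnb1 and Efna2. Of the 55 members, 16 rose and 15 fell (56.4% passed), beside 29% of all genes tested (14.6% higher and 14.4% lower), and groups overlapped in none of the 31. The median size of the log2 fold change was 0.70 over the members and 0.26 over all genes tested. This comparison and that of CAF with NF share the untreated NF libraries, so their values are given side by side only. Blocking on the replicate number gave 35 calls, beside 36.4% of all genes in that fit. The 4 gained were Sema4g and Plxnd1, higher, and Sema5a and Sema4b, lower (adjusted p = 0.0251, 0.00419, 0.00889 and 0.00333). Summed markers of other cell types also moved with TGFb1 at low levels, from 0.538 to 0.585 TPM up to 1.14 to 1.72 TPM for the epithelial list and from 0.479 to 0.752 up to 1.65 to 3.21 TPM for the pericyte list, and from 0.478 to 0.972 up to 1.18 to 1.62 TPM for the glial list, and their part in the result was not tested.

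Among ligands, Sema7a had the largest rise of the members at 5 CPM or more in the higher group. It was at 2.28, 1.08 and 1.41 CPM with vehicle and 48.9, 29.3 and 31.7 CPM with TGFb1 (4.50 ± 0.76, adjusted p = 0.000212), and every TGFb1 library was far above every vehicle library. Its level rose from 0.87 ± 0.277 to 21 ± 5.29 TPM, beside 16.2 ± 0.258 TPM of Sema4b, the leading semaphorin of untreated NF. With TGFb1, Sema4c was at a like level, at 19.3, 19.7 and 21.9 TPM against 27, 16.9 and 19 TPM of Sema7a. Efnb1, a transmembrane ephrin, was at 12.3, 17.4 and 16.5 CPM with vehicle and 39.7, 40.5 and 46.7 CPM with TGFb1 (1.46 ± 0.28, adjusted p = 0.000618). Efna2 was at 5.3, 5.28 and 4.65 CPM with vehicle and 10.8, 10.8 and 9.78 CPM with TGFb1 (1.04 ± 0.10, adjusted p = 6.37e-07). Neither showed overlap. Efna1, Efna3 and Efna4 also rose, by 0.58, 0.76 and 0.56, so 4 of 5 ephrin-A genes rose and Efna5 fell (-0.66 ± 0.23). Of all genes tested, 14.6% rose and 14.4% fell. Sema4c (0.49), Sema4d (1.59) and Sema6d (0.82) rose, and Sema4a fell (-0.55).

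Class 3 semaphorins fell in 5 of 7 cases and rose in none, beside 14.4% of all genes tested that fell and 14.6% that rose. Sema3a was at 7.45, 4.67 and 5.17 CPM with vehicle and 1.91, 1.73 and 2.43 CPM with TGFb1 (-1.53 ± 0.22, adjusted p = 3.36e-05). Sema3f was at 6.07, 10.5 and 11.7 CPM with vehicle and 3.97, 4.06 and 4.6 CPM with TGFb1 (-1.16 ± 0.20, adjusted p = 0.000306), and Sema3c at 24.4, 25.5 and 46.7 CPM with vehicle and 13.9, 16.7 and 15.2 CPM with TGFb1 (-1.07 ± 0.35, adjusted p = 0.0273). In each of the 3 genes the TGFb1 libraries lay below all vehicle libraries. Sema3d (-2.86) and Sema3b (-2.03) fell at under 1.2 CPM. Sema3e, with 5 counts in vehicle-treated NF and 1 under TGFb1, and Sema3g did not pass. The Sema3c call was lost without NF vehicle replicate 3 (adjusted p = 0.155), TGFb1 replicate 1 (0.0762), 2 (0.0501) or 3 (0.0706). The summed level of the 7 genes was 22.2 ± 7.88 TPM with vehicle and 10.4 ± 0.58 TPM with TGFb1.

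Receptors of one family moved in different directions. Unc5b (chr10:60762593-60831581, minus strand), which has a death domain in its cytoplasmic part, was at 62.4, 98.7 and 101 CPM with vehicle and 229, 255 and 297 CPM with TGFb1 (1.58 ± 0.17, adjusted p = 2.26e-06), while Unc5c was at 44.5, 44.8 and 56.4 CPM with vehicle and 18.5, 20.2 and 20.9 CPM with TGFb1 (-1.29 ± 0.41, adjusted p = 0.0253). The groups separated for both, but the Unc5c call was lost without vehicle replicate 3 (adjusted p = 0.069) or TGFb1 replicate 1 (0.0686), 2 (0.0623) or 3 (0.0608). Plxnb1 was at 11.9, 17.5 and 14.5 CPM with vehicle and 34.1, 33.6 and 37.5 CPM with TGFb1 (1.26 ± 0.24, adjusted p = 0.000545). Plxna2 went the other way, from 61.5, 55.9 and 47.4 CPM with vehicle to 13.7, 17 and 13.8 CPM with TGFb1 (-1.89 ± 0.25, adjusted p = 2e-05). Plxna4 was at 0.165, 0.247 and 0.153 CPM with vehicle and 4.29, 4.76 and 4.37 CPM with TGFb1 (4.57 ± 0.34, adjusted p = 1.7e-08), a large fold at a level of only 0.636 ± 0.0488 TPM. Plxna1 rose (0.35) and Plxna3 fell (-0.51).

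Epha1 was at 4.6, 5.23 and 7.59 CPM with vehicle and 1.95, 1.75 and 2.38 CPM with TGFb1 (-1.53 ± 0.21, adjusted p = 2.2e-05), and Epha2, the most abundant EphA receptor of untreated NF, at 31.6, 31.8 and 33.3 CPM with vehicle and 17.4, 13.5 and 16.9 CPM with TGFb1 (-1.02 ± 0.23, adjusted p = 0.00232). Every TGFb1 library lay below every vehicle library for both. Epha3 rose from 0.132, 0.0674 and 0 to 0.999, 0.418 and 0.392 CPM (3.09 ± 0.68). Ephb2 (0.69) and Ephb6 (1.18) rose, Ephb3 fell (-0.68), and Ephb4 did not pass. Slit2 was at 395, 378 and 381 CPM with vehicle and 232, 223 and 254 CPM with TGFb1 (-0.70 ± 0.21, adjusted p = 0.0187), and Slit3 at 321, 334 and 491 CPM with vehicle and 185, 213 and 260.1 CPM with TGFb1 (-0.80 ± 0.24, adjusted p = 0.0167). The Slit2 call was lost without TGFb1 replicate 2 (adjusted p = 0.0603) and that of Slit3 without TGFb1 replicate 1 (0.0682), 2 (0.0501) or vehicle replicate 3 (0.0934). The neuropilins did not pass, with Nrp1 at 0.56 ± 0.22 (adjusted p = 0.0711) and Nrp2 at -0.44 ± 0.20 (adjusted p = 0.105). The netrins and Robos did not pass either. The fit of the compared groups alone called Nrp1 as higher (adjusted p = 0.0433). DESeq2 called Robo2 as lower (-2.10 ± 0.77, adjusted p = 0.0279, against 0.0637 in the main fit). Robo2 was at only 0.0827, 0.157 and 0.229 CPM with vehicle. Of the 31 calls, 19 held whichever library was left out. Besides those named, the calls of Efna1, Efna3, Efna4, Efna5, Ephb2, Ephb6, Plxna1 and Sema4a were each lost without at least 1 library, with adjusted p up to 0.182. That of Efna5 was lost without any 1 of the 6 libraries, and that of Efna3 without any 1 of 5.

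The sequence just before the start of 4 members that rose with TGFb1 is shown because SMAD3, the transcription factor of TGFb1 signalling, is known to bind CAGAC, whose reverse complement is GTCTG. The sequences are from RefSeq (GRCm38.p6), 250 bases 5′ to 3′ on the gene's strand, and capitals mark CAGAC or GTCTG.
Sema7a (chr9:57939862-57940111, plus strand): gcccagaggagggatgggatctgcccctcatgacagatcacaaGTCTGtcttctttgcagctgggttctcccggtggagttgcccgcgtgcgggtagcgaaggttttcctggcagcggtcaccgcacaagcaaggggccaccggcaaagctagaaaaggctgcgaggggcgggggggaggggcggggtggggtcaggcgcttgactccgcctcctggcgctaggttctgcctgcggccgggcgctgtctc
Unc5b (chr10:60831582-60831831, minus strand): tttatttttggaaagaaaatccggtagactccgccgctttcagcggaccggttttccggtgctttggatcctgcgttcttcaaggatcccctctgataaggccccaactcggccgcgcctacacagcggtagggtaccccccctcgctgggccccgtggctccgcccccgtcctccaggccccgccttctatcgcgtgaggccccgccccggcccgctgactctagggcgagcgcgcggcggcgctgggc
Efnb1 (chrX:99135811-99136060, plus strand): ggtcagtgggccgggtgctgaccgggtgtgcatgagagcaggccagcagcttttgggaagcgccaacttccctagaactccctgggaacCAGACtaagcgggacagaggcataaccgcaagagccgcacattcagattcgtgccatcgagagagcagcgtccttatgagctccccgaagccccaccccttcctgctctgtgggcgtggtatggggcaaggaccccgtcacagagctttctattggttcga
Efna2 (chr10:80179232-80179481, plus strand): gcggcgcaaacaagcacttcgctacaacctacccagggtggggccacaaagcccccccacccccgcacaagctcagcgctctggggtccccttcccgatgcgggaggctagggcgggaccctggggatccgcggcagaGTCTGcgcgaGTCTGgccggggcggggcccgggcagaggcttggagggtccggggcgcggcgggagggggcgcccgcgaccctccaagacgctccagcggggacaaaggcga
Efna2 holds 2 matches, Sema7a and Efnb1 1 each and Unc5b none. Of 58 members with a listed start, 46.6% held a match on either strand, beside 42.2% of 32851 promoter windows of this length. Some listed starts lay far from the GENCODE gene start, by 354843 bases for Robo1, 271370 for Sema3a, 37064 for Sema4d and 1611 for Plxna2. These windows stayed in the counts, those of Robo1, Sema4d and Plxna2 with a match. By outcome, a match was found in 8 of 14 members that rose, 7 of 13 that fell and 8 of 20 that did not pass. On either strand, the AP-1 motif TGANTCA was in 1.72% of members beside 6.75% of all windows, and TATAAA in 3.45% beside 12.4%. A match describes letters and is not a bound site.

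**Figure D3:**
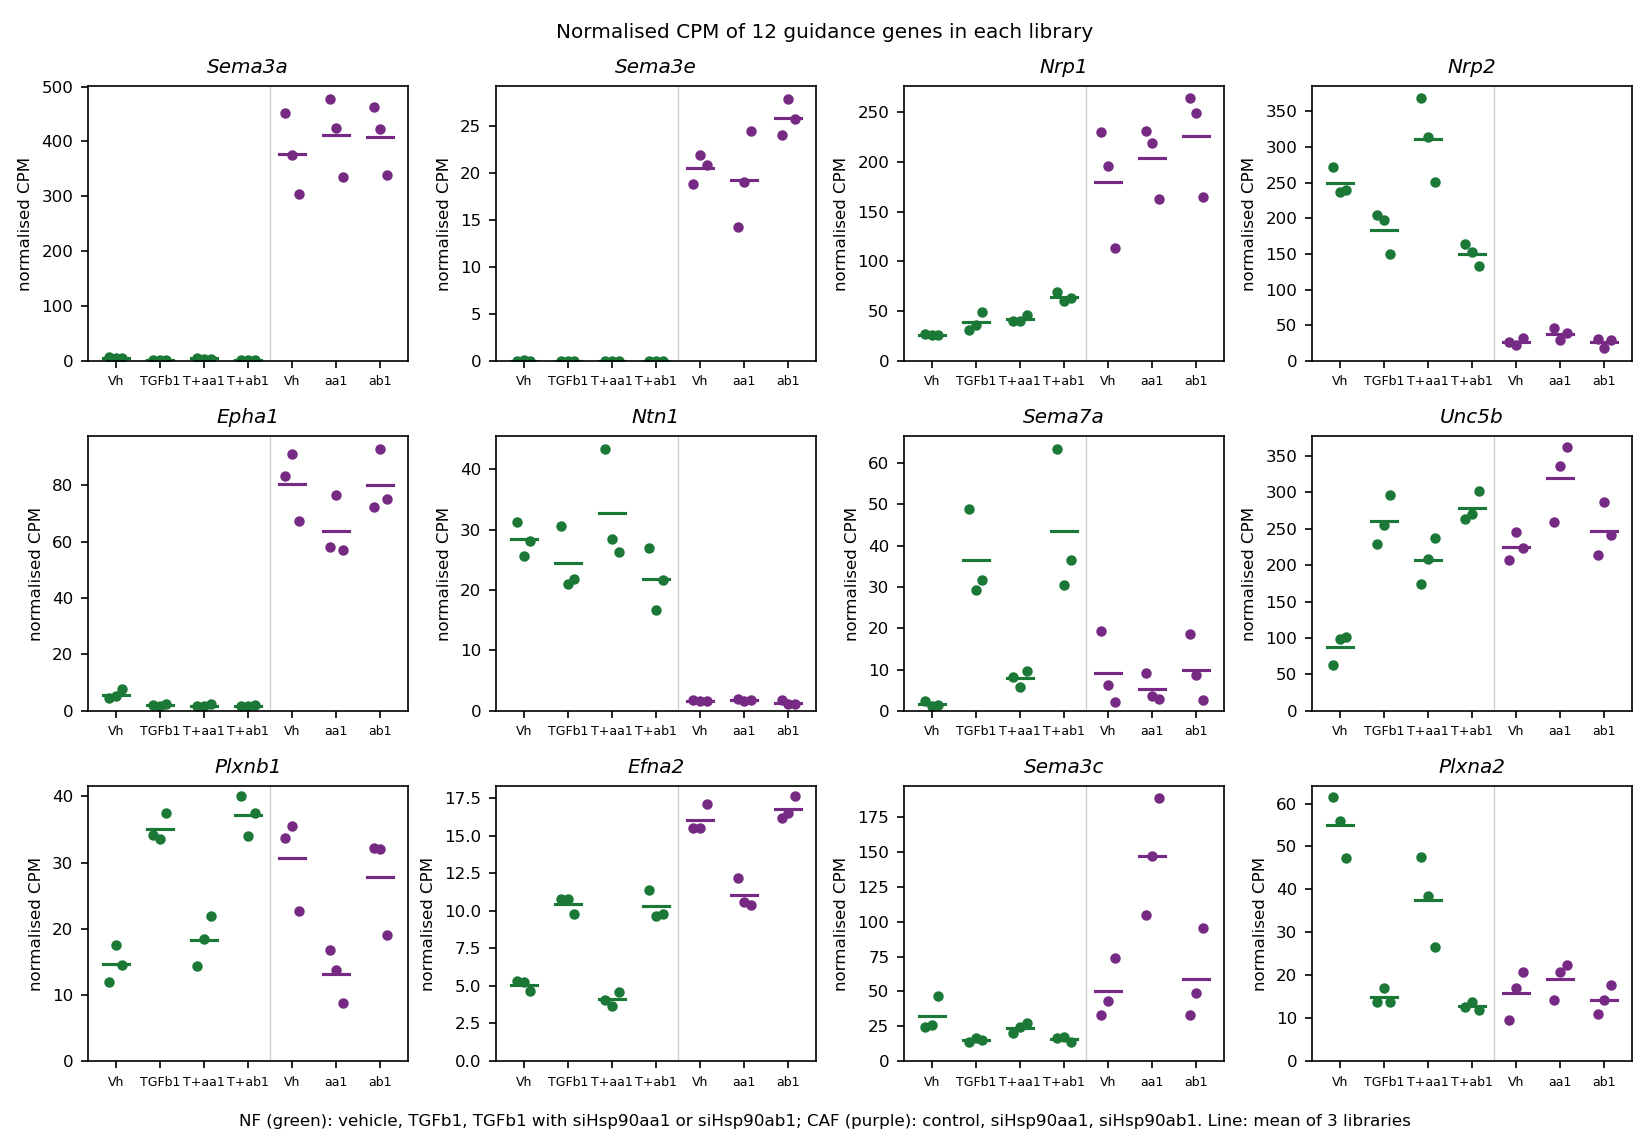
Normalised CPM of 12 guidance genes in each library (points, n = 3 per group), with the mean as a line, NF groups in green and CAF groups in purple. Sema3a, Sema3e and Epha1 are higher in every CAF library than in any NF library, Sema7a and Unc5b rise with TGFb1 in NF, and Sema3c is highest in CAF with Hsp90aa1 siRNA.

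Hsp90aa1 siRNA was compared with control siRNA in NF under TGFb1. Sema7a, Efna2 and Plxnb1 fell, and Unc5c, Plxna2 and Sema3a rose. Of the 55 members, 11 rose and 11 fell (40% passed), beside 28.3% of all genes tested (14.8% higher and 13.5% lower), and the groups overlapped only for Sema3b among these 22. Markers of other cell types moved with this knockdown too, 2 of 5 tested endothelial markers rising (list sum 0.328 to 1.4 TPM with control and 0.593 to 0.846 TPM with Hsp90aa1 siRNA), 1 of 2 pericyte markers falling (1.65 to 3.21 and 1.16 to 1.89 TPM) and 1 of 2 immune markers falling (4.45 to 5.46 and 3.78 to 4.85 TPM), and their part in the result was not tested. The control libraries are the same TGFb1 libraries that entered the comparison with vehicle, so the directions in the 2 comparisons are not independent. Efna2 was at 10.8, 10.8 and 9.78 CPM with control siRNA and 4.04, 3.69 and 4.59 CPM with Hsp90aa1 siRNA (-1.35 ± 0.11, adjusted p = 5.37e-07). Sema7a was at 48.9, 29.3 and 31.7 CPM with control and 8.31, 5.82 and 9.7 CPM with Hsp90aa1 siRNA (-2.21 ± 0.67, adjusted p = 0.0192). Both were separated in all libraries, but the Sema7a call was lost without TGFb1 control replicate 1 (adjusted p = 0.0697) or knockdown replicate 1 (0.0606) or 2 (0.0766). Sema6a was at 8.35, 7.26 and 9.42 CPM with control and 2.78, 3.54 and 5.87 CPM with Hsp90aa1 siRNA (-1.04 ± 0.37, adjusted p = 0.0427), and its call was lost without any of 5 of the 6 libraries, all but knockdown replicate 3 (adjusted p up to 0.172). Plxnb1 was at 34.1, 33.6 and 37.5 CPM with control and 14.3, 18.4 and 22 CPM with Hsp90aa1 siRNA (-0.95 ± 0.23, adjusted p = 0.00596), with no overlap. Epha3, Sema4d, Efna3, Efna4, Efnb2, Plxna1 and Sema4c also fell.

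Unc5c was at 18.5, 20.2 and 20.9 CPM with control siRNA and 55.7, 63.9 and 55.6 CPM with Hsp90aa1 siRNA (1.56 ± 0.42, adjusted p = 0.00977). Plxna2 was at 13.7, 17 and 13.8 CPM with control and 47.5, 38.5 and 26.6 CPM with Hsp90aa1 siRNA (1.34 ± 0.25, adjusted p = 0.000769). Sema3a was at 1.91, 1.73 and 2.43 CPM with control and 5.41, 4.28 and 4.21 CPM with Hsp90aa1 siRNA (1.21 ± 0.22, adjusted p = 0.000586). The knockdown libraries lay above all control libraries in these 3 genes. Nrp2 (0.76 ± 0.20) and Plxnd1 (0.74 ± 0.19) rose from higher levels, Plxnd1 from 183, 246 and 269 to 352, 383 and 428 CPM. Sema3b, Sema3d, Sema4a, Plxna3, Plxnb2 and Ephb3 also rose, Plxnb2 by 0.17, from 460.5, 498 and 503 CPM with control to 570.3, 541 and 531 CPM. The count of 22 fell to 13 without TGFb1 control replicate 1 or without knockdown replicate 1, and 10 of the 22 calls held whichever library was left out. Over all genes the count of 4309 fell to 2961 and 2911 without these 2 libraries. Besides Sema7a and Sema6a, the calls of Efna4, Efnb2, Epha3, Nrp2, Plxna1, Plxna3, Plxnb2, Plxnd1, Sema3b and Sema4c were each lost without at least 1 library, with adjusted p up to 0.22. That of Plxnb2 was lost without any 1 of the 6 libraries, and those of Efnb2 and Sema4c without any 1 of 5. A fit blocked on the replicate number called 30 members (beside 37.3% of all genes), the 8 gained being Epha2, Ephb2, Ntn1, Sema3f and Sema4b, higher (adjusted p 0.00494 to 0.0365), and Unc5b, Efnb1 and Robo1, lower (0.0156 to 0.0283).

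In CAF, Hsp90aa1 siRNA raised Sema3c, Sema3f and Efnb2 and lowered Plxnb1, Sema6b and Efna2. Of the 55 members, 9 rose and 7 fell (29.1% passed), beside 25.4% of all genes tested (12.5% higher and 12.9% lower), a share near that background. The groups overlapped only for Sema4a among these 16. No tested endothelial, pericyte, epithelial, immune, neuronal or glial marker passed here, while the immune list summed to 4.7 to 6.39 TPM with control and 2.66 to 4.5 TPM with Hsp90aa1 siRNA. Sema3c (chr5:17574281-17730268, plus strand) was at 32.9, 43.3 and 74 CPM with control siRNA and 105, 147 and 189 CPM with Hsp90aa1 siRNA (1.55 ± 0.35, adjusted p = 0.00318). Sema3f was at 8.48, 10.00 and 12.7 CPM with control and 18.3, 22.8 and 21.8 CPM with Hsp90aa1 siRNA (1.01 ± 0.20, adjusted p = 0.00116). Every knockdown library was above every control library for both. Plxnb1 was at 33.6, 35.5 and 22.7 CPM with control and 16.8, 13.8 and 8.81 CPM with Hsp90aa1 siRNA (-1.21 ± 0.24, adjusted p = 0.00119), and no library overlapped. Efnb2 rose from 49.1, 39.9 and 31.2 to 63.9, 59.1 and 53.7 CPM (0.56 ± 0.13, adjusted p = 0.00431), and Unc5b from 207, 246 and 223 to 260.0, 336 and 362 CPM (0.50 ± 0.17, adjusted p = 0.0366). Sema6b fell from 4.42, 2.51 and 2.67 to 1.73, 1.09 and 1.3 CPM (-1.21 ± 0.28, adjusted p = 0.00385).

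Plxna4 (1.81) and Plxnc1 (1.32) rose at under 1 TPM, Plxnb2, Plxnd1 and Ephb3 rose by 0.23, 0.58 and 0.37, and Efna2, Efna3, Efnb3, Plxna1 and Sema4a fell by 0.32 to 0.90. Neither Sema3a (0.13 ± 0.17, adjusted p = 0.645) nor Nrp1 (0.18 ± 0.22, adjusted p = 0.593) nor Epha1 (-0.34 ± 0.17, adjusted p = 0.169), which were all far higher in CAF than in NF, passed. The count of 16 was 8 without CAF control replicate 2, 9 without CAF control replicate 1 and 19 without CAF control replicate 3. Over all genes the count of 3867 was 2460, 2605 and 4426, in the same order. The calls of Unc5b, Plxnd1, Plxnc1, Ephb3, Plxna1, Plxnb2, Efna3, Efnb3 and Sema4a were each lost without at least 1 library, with adjusted p up to 0.173. That of Ephb3 was lost without any 1 of the 6 libraries, and that of Unc5b without any 1 of 5. The fit blocked on replicate called 22 (beside 34.1% of all genes), the 6 gained being Ntn4, Nrp2, Ephb2, Efnb1 and Sema3b, higher (adjusted p 0.000508 to 0.0469), and Sema3g, lower (0.0435).

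The NF and CAF knockdowns share no library. Of the 22 NF calls and the 16 CAF calls, 7 were shared with the same direction, 31.8% of the NF and 43.8% of the CAF calls, beside 43.1% and 48% over all genes tested. Efna2, Efna3, Plxna1 and Plxnb1 fell and Ephb3, Plxnb2 and Plxnd1 rose with Hsp90aa1 siRNA in both. Of these, only Efna2 and Plxnb1 kept their calls in both lines whichever library was left out. Efnb2 and Sema4a passed in both with opposite signs. The Efnb2 call in NF was lost without any 1 of 5 libraries, and the Sema4a call in CAF without any 1 of 4.

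**Figure D4:**
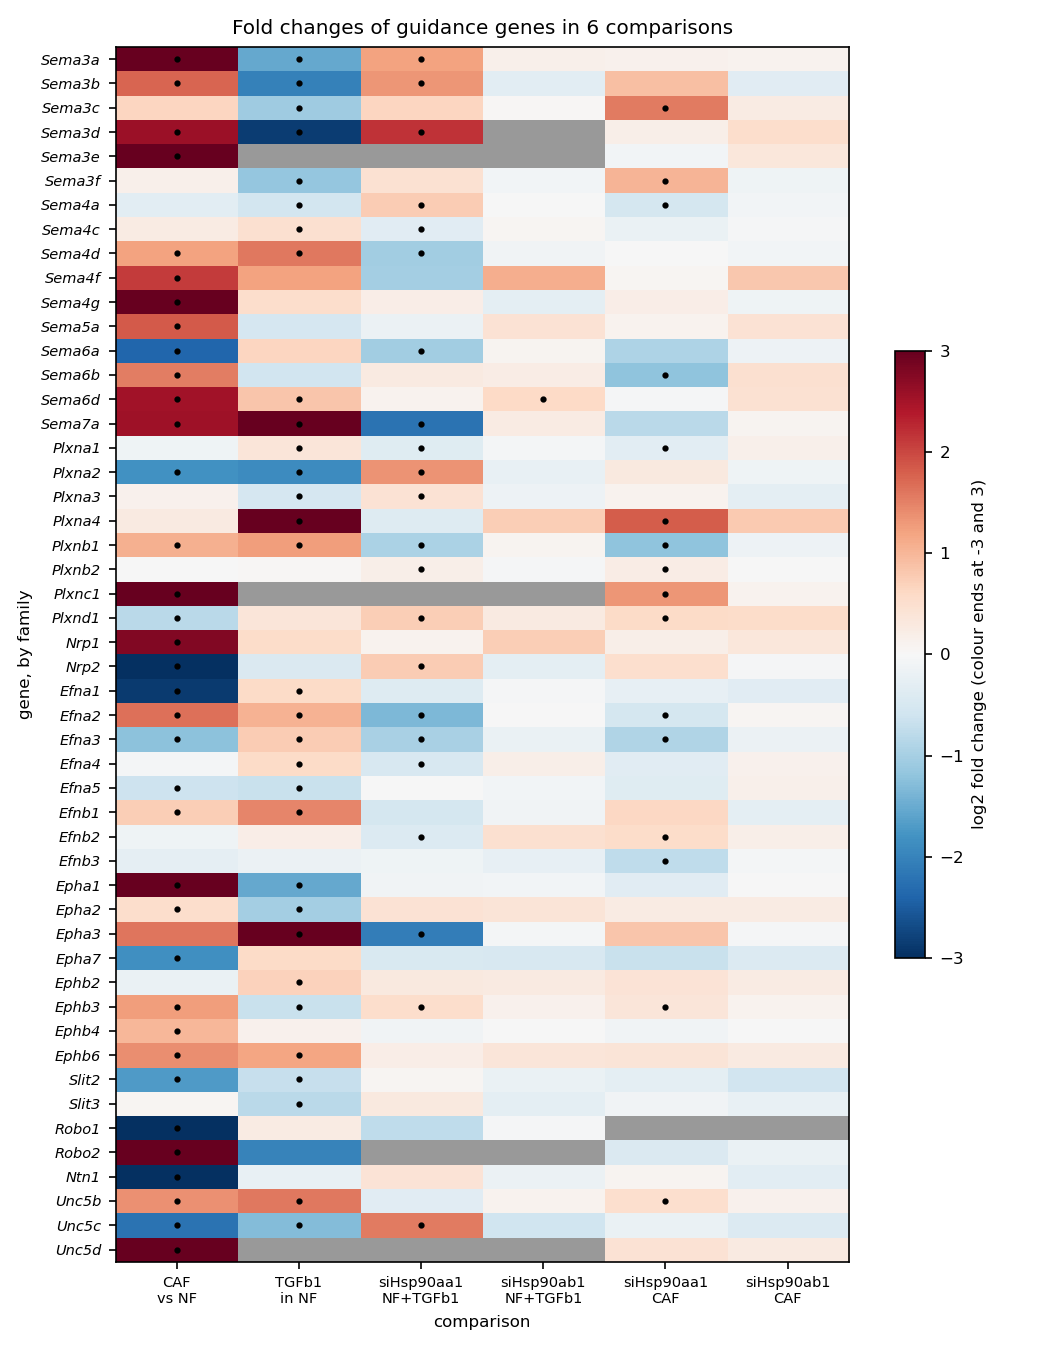
Log2 fold changes of the 50 guidance genes that passed in at least 1 of 6 comparisons (columns), with colour ending at -3 and 3 and a dot where the adjusted p was under 0.05. Grey cells had a mean under 0.1 CPM in both groups, and the 2 Hsp90ab1 columns hold 1 dot between them, at Sema6d in NF.

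Few guidance genes passed with Hsp90ab1 siRNA. In NF with TGFb1, 1 of 55 members passed (1.82%, beside 2.69% of all genes tested, 1.06% higher and 1.62% lower). Sema6d was at 4.8, 3.35 and 4.55 CPM with control and 7.6, 5.28 and 6.14 CPM with Hsp90ab1 siRNA (0.59 ± 0.15, adjusted p = 0.0488), and this call was lost without any TGFb1 control replicate or without knockdown replicate 1 or 3 (adjusted p 0.0744 to 0.288). Efnb2, at 48.5, 44.6 and 58.1 CPM with control and 72.5, 69 and 70.2 CPM with Hsp90ab1 siRNA, missed the threshold (0.49 ± 0.13, adjusted p = 0.0509) although its libraries did not overlap, while a fit with the replicate block called it (adjusted p = 0.0247) and Ephb2 (0.0378), 3 members in all beside 5.92% of all genes in that fit. Nrp1, at 30.7, 36.3 and 49.6 CPM with control and 69.7, 60.2 and 63.7 CPM with Hsp90ab1 siRNA, did not pass either (0.73 ± 0.22, adjusted p = 0.0973) without overlap. DESeq2, however, called 4 members in NF, beside 708 of all genes. Those gained were Efnb2, Nrp1 and Plxna4, all higher (adjusted p = 0.0128, 0.0286 and 0.0337). The fit of the compared groups alone called these 3 as higher (0.0298, 0.0366 and 0.01) and Unc5c as lower (0.0204), beside 553 of all genes. Of 3 tested glial markers 1 passed as higher (list sum 1.18 to 1.62 TPM with control and 2.21 to 2.94 TPM with Hsp90ab1 siRNA), and its part in the result was not tested. In CAF, 0 of 55 members passed edgeR's test, beside 0.9% of all genes tested (0.466% higher and 0.433% lower), 5 had an unadjusted p under 0.05, and DESeq2 also gave 0. Under the replicate block, Sema6d (0.47 ± 0.12, adjusted p = 0.0447) and Plxnd1 (0.57 ± 0.09, adjusted p = 0.00202) passed in CAF, beside 2.36% of all genes in that fit.

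The 2 knockdowns were also set against each other. In NF with TGFb1, 11 members were higher and 15 lower with Hsp90aa1 than with Hsp90ab1 siRNA (47.3%, beside 34.1% of all genes tested, 17.7% higher and 16.4% lower). The 4 largest differences at 5 CPM or more were Unc5c (2.16 ± 0.43) and Plxna2 (1.56 ± 0.25), higher, and Sema7a (-2.46 ± 0.67) and Efna2 (-1.33 ± 0.11), lower. Unc5c was at 55.7, 63.9 and 55.6 CPM with Hsp90aa1 and 11.3, 13.6 and 14.4 CPM with Hsp90ab1 siRNA, a gap with no overlap. Plxna2 was at 47.5, 38.5 and 26.6 CPM with Hsp90aa1 and 12.7, 13.6 and 11.9 CPM with Hsp90ab1 siRNA. Sema7a was at 8.31, 5.82 and 9.7 and 63.4, 30.5 and 36.6 CPM and Efna2 at 4.04, 3.69 and 4.59 and 11.4, 9.69 and 9.79 CPM, in the same order. Again no library overlapped in these 3 genes. Sema6a, at 2.78, 3.54 and 5.87 and 9.89, 7.07 and 9.58 CPM (-1.13 ± 0.37), and Plxna4, at 2.8, 3.08 and 4.48 and 7.89, 7.07 and 7.46 CPM (-1.12 ± 0.26), were also lower with Hsp90aa1 siRNA, without overlap. Nrp2, at 368, 314 and 251 and 164, 153 and 133 CPM, was higher (1.06 ± 0.20) and Nrp1 lower (-0.62 ± 0.22, adjusted p = 0.0395) with Hsp90aa1 siRNA, and Ntn1 was higher (0.59 ± 0.20, adjusted p = 0.0267). The Nrp1 call was lost without any 1 of the 6 libraries (adjusted p up to 0.118), that of Ntn1 without 3 of them (up to 0.217) and that of Sema6a without Hsp90aa1 replicate 1 or 2 or Hsp90ab1 replicate 1 or 3 (up to 0.114). Under the replicate block 34 passed (beside 42.2% of all genes), the 8 gained being Sema4g, Plxnd1, Sema4b and Sema3f, higher (adjusted p 0.000283 to 0.0299), and Unc5b, Sema5a, Robo1 and Efnb1, lower (0.00228 to 0.0409). In CAF, 9 were higher and 7 lower (29.1%, beside 26.3% of all genes tested, 13.1% higher and 13.3% lower). Sema3c (1.31 ± 0.34), Sema3b (1.24 ± 0.34) and Sema3f (1.15 ± 0.20) were higher with Hsp90aa1 siRNA and Plxnb1 (-1.07 ± 0.24) was lower. Sema3c was at 105, 147 and 189 CPM with Hsp90aa1 and 33.1, 48.7 and 95.7 CPM with Hsp90ab1 siRNA, without overlap, but its call was lost without Hsp90ab1 replicate 1 or 2 or Hsp90aa1 replicate 3 (adjusted p 0.0511 to 0.0543), and that of Sema3b, at 5.77, 7 and 6.25 CPM with Hsp90aa1 and 2.55, 2.46 and 3.01 CPM with Hsp90ab1 siRNA, without Hsp90ab1 replicate 2 (0.0519). Sema3f was at 18.3, 22.8 and 21.8 and 7.84, 9.13 and 11.4 CPM and Plxnb1 at 16.8, 13.8 and 8.81 and 32.2, 32 and 19 CPM, in the same order. The groups did not overlap in any of these 4 genes. With the block 22 passed (beside 35.5% of all genes), the 6 gained being Unc5b and Nrp2, higher (0.012 and 0.0213), and Efna3, Sema4a, Efna5 and Sema3e, lower (0.0186 to 0.0473). The CAF count was 8 without Hsp90ab1 replicate 1 or 2 and 10 without Hsp90aa1 replicate 3. Over all genes the CAF count of 4006 was 2492, 2478 and 2506 without these libraries.

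The effect of Hsp90aa1 siRNA differed between CAF and NF in 7 of 55 members (12.7%, beside 5.46% of all genes tested, 2.44% with a higher and 3.02% with a lower value in CAF). The lines also differed in TGFb1, which cannot be told apart from the line here. Efnb2 fell in NF (-0.40 ± 0.13) and rose in CAF (0.56 ± 0.13), a difference of 0.96 ± 0.18 (adjusted p = 0.0056), and Sema4a rose in NF (0.77 ± 0.17) and fell in CAF (-0.52 ± 0.17), a difference of -1.28 ± 0.24 (adjusted p = 0.00451). Efna2 fell in both, less in CAF (0.81 ± 0.14, adjusted p = 0.00372). Plxna4, Sema3a, Unc5b and Sema6b made up the other 4. The count was 4 without NF control replicate 1, NF knockdown replicate 1, or CAF knockdown replicate 2 or 3. Over all genes the count of 832 was 587, 453, 540 and 618, in the same order. The replicate block called 10 (beside 12.3% of all genes), the 3 gained being Efnb1, Epha3 and Unc5c (adjusted p = 0.00398, 0.0226 and 0.0167). The difference for Hsp90ab1 siRNA passed in 0 members by edgeR and by DESeq2, beside 0.00657% of all genes tested, and 0 members had an unadjusted p under 0.05.

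Levels of known ligand and receptor pairs were set side by side per length. In CAF Sema3a at 181 ± 36.7 TPM stood beside Nrp1 at 57.5 ± 19.2, Plxna1 at 86.9 ± 6.11 and Plxna3 at 35.3 ± 5.76 TPM. In NF Sema3a at 2.29 ± 0.389 TPM stood beside Nrp1 at 7.99 ± 0.432 TPM. Sema7a in NF with TGFb1, at 21 ± 5.29 TPM, stood beside Plxnc1 at 0.0673 ± 0.107 TPM and Itgb1 at 615 ± 32.5 TPM. Ephrin-B2 and Ephb4 were at 17.7 ± 3.92 and 69.4 ± 3.06 TPM in CAF. Ntn1, at 9.78 ± 0.85 TPM in NF and 0.639 ± 0.052 TPM in CAF, stood beside Unc5b at 27 ± 8.3 and 72.8 ± 7.18 TPM. Kdr and Met, other co-receptors of this network, were at 1.37 ± 0.501 and 21.1 ± 10.7 TPM in CAF.

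A list of 63 co-receptors, other ligands, proteases and cytoplasmic effectors of these pathways, of which 59 were tested, was read from the same fit. In CAF against NF 27 were higher and 15 lower (71.2%, beside 61.6% of all genes tested), and with TGFb1 15 rose and 9 fell (40.7%, beside 29%). With Hsp90aa1 siRNA 13 rose and 11 fell in NF (40.7%, beside 28.3%), and 14 rose and 9 fell in CAF (39%, beside 25.4%). With Hsp90ab1 siRNA none rose and 3 fell in NF (5.08%, beside 2.69%), and none rose and 2 fell in CAF (3.39%, beside 0.9%). The median size of their log2 fold change was 0.51 in CAF against NF and 0.42 with TGFb1, beside 0.52 and 0.26 over all genes tested. The smallest p in CAF against NF belonged to Grb10, an adaptor protein (4.97 ± 0.13), Flrt1, an Unc5 ligand (-3.82 ± 0.13), and Flrt2 (2.85 ± 0.20). With TGFb1 they belonged to Fyn (1.14 ± 0.08), a Src-family kinase downstream of plexins and netrin receptors, Dpysl3 (2.35 ± 0.23), a collapsin response mediator, and the protease Furin (1.02 ± 0.11), which processes class 3 semaphorins.

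Dag1, the dystroglycan that binds Slits, passed in all 4 knockdown comparisons with opposite signs for the 2 targets. It rose with Hsp90aa1 siRNA in NF (0.68 ± 0.10) and CAF (0.76 ± 0.10) and fell with Hsp90ab1 siRNA in NF (-0.97 ± 0.10, adjusted p = 8.08e-05) and CAF (-0.77 ± 0.10, adjusted p = 0.000731). Beside Dag1, the smallest p were those of Vav2 (-0.86 ± 0.09) and Grb10 (0.73 ± 0.11) with Hsp90aa1 siRNA in NF, Rras (0.93 ± 0.09) and Flrt1 (0.87 ± 0.12) with it in CAF, Flrt1 (-1.02 ± 0.11) and Ptprj (-0.53 ± 0.09) with Hsp90ab1 siRNA in NF, and Ptprj (-0.48 ± 0.10) with it in CAF.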

How the data were processed

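Stranded mRNA libraries (21) of mouse mammary fibroblasts were sequenced, per the labels' protocols. The deposited tables hold expected counts per gene and TPM. The submitters' processing notes name STAR, Salmon and GRCm38, without versions or order, and the sources used here do not state whether counting used strand. The authors' expected counts are estimates and were rounded to whole numbers (10.9% were not whole). The authors' TPM sum to the same total in each library and were used only to compare levels. Groups were read from the titles and each column was matched to its sample by the library name in the labels.

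Members were all genes whose symbol matched the name patterns, and the members and lists were chosen with earlier results of these data known. Genes were kept by edgeR 4.0.16's filterByExpr (minimum count 10, minimum total 15), normalised by TMM and fitted in R 4.3.3 with 1 coefficient per group over all 21 libraries (quasi-likelihood F test, prior count 0.125). P-values were Benjamini-Hochberg adjusted over 15230 genes within each of 10 comparisons. The SE is the size of the fold change over the root of F. Every member is named at least once, and values per library are given for members that passed with a log2 fold change of at least 1 and 5 CPM or more in the higher group (the largest first, up to 10 in each direction for CAF against NF, 8 for TGFb1 and each knockdown and 4 otherwise), for the member with the highest TPM of each family, and for further members singled out after their values were seen. The promoter genes were likewise chosen after their values were seen.

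The labels give the replicate number as a batch, so same-numbered libraries are paired. The main fit, with its SE and adjusted p, leaves this pairing out, and the fit with the replicate block is given as an alternative. Deviations from group means correlated over 0.1 in 55 of 63 same-numbered pairs (mean r 0.347, against -0.166 for other numbers, over 7921 genes). Replicates of a group correlated at 0.967 to 0.994 and differed by more than counting noise, so none was counted as a duplicate. The fit was tested on simulated data of 15230 genes for the 6 comparisons with a control group. It recovered 83 to 92% of the genes changed 2-fold and 95 to 100% of those changed 4-fold, with a false share of calls up to 6.93%. Changed genes were sampled above a minimum level in the reference group, so recovery of members near the floor was not measured. The simulated libraries were independent, held no replicate effect and took their spread from the fit itself. Only a small part of the genes was changed, whereas 61.6% passed in CAF against NF. The simulation thus does not cover comparisons in which most genes differ. Alternatives were DESeq2 1.42.0, its size factors, no count filter, the compared groups alone, a replicate block and each library left out.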

Additional observations from a re-analysis of the deposited data

Results flagged for a closer look

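The effect of Hsp90aa1 siRNA differed between CAF (no TGFb1) and NF (with TGFb1) in 7 guidance genes by edgeR's test of the difference itself, given here as the CAF effect minus the NF effect on the log2 scale. Efna2 (difference 0.81, adjusted p = 0.00372), Efnb2 (0.96, 0.0056), Plxna4 (2.19, 0.00662) and Unc5b (0.84, 0.0496) were raised more or lowered less in CAF. Sema4a (-1.28, 0.00451), Sema3a (-1.08, 0.0291) and Sema6b (-1.47, 0.0428) were lowered more or raised less in CAF. Sema3a rose in NF at under 6 CPM and did not pass in CAF, where it was at 304 to 477 CPM. The calls of Unc5b, Sema6b and Sema3a were lost without any 1 of 10, 9 and 7 libraries, most of those compared, with adjusted p up to 0.14, 0.112 and 0.0945. Line and TGFb1 cannot be told apart in this difference.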

How the results depend on the processing

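Over all 10 comparisons, 155 calls of members were recomputed. None changed sign. DESeq2 and the replicate block kept all 155, DESeq2's size factors kept 153, the fit without a count filter 142, and the fit of the compared groups alone 133 of the 153 it could give. Leaving out 1 library kept 757 of 972 recomputed calls. For Hsp90ab1 siRNA in NF the count of 1 became 4 with DESeq2, 0 without the count filter, 3 with the replicate block and 4 with the compared groups alone. Over all genes the count of 409 became 708, 326, 902 and 553, in the same order. For Hsp90ab1 siRNA in CAF the count of 0 became 2 with the replicate block, and 137 became 360 over all genes. The 7 members whose Hsp90aa1 effect differed between CAF and NF became 11 with DESeq2, and 832 became 1333 over all genes. The replicate block moved no other count by over 1.5 times. With each library left out in turn, counts ran from 34 to 38 for CAF against NF (36 with all), 23 to 30 for TGFb1 (31), 13 to 18 for Hsp90aa1 siRNA in NF (22) and 8 to 19 in CAF (16), 0 to 1 for Hsp90ab1 siRNA in NF (1) and 0 in CAF, 19 to 25 for the 2 siRNAs against each other in NF (26) and 8 to 15 in CAF (16), and 4 to 7 and 0 for the CAF minus NF differences of the Hsp90aa1 and Hsp90ab1 effects. Over all genes, counts with 1 library left out ran from 8812 to 9186 for CAF against NF (9378 with all) and 3329 to 4291 for TGFb1 (4410). For Hsp90aa1 siRNA they ran from 2911 to 3801 in NF (4309) and 2460 to 4426 in CAF (3867). For Hsp90ab1 siRNA in NF they ran from 157 to 329 (409). For the 2 siRNAs against each other they ran from 3841 to 4700 in NF (5201) and 2478 to 4285 in CAF (4006). For the Hsp90aa1 CAF minus NF difference they ran from 453 to 951 (832). The cause of these changes was not tested, except that leaving out a library leaves fewer samples. Members under about 1 CPM rest on few counts, and a change in them may not be detectable at this depth.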
